A study of Mus musculus with 14 samples.

Results

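A set of 10 genes that mark blood and vessels were followed in the testis of Adad2 mutant mice. Hba-a1, Hba-a2, Hbb-bs and Hbb-bt encode the adult globins, Alas2 encodes the heme enzyme of red cells, and Pecam1, Cdh5, Kdr, Tek and Esam mark the endothelium. They were chosen by name as 10 of the 53239 gene symbols measured. Total RNA of whole testis lysate (input) and RNA pulled down with tagged ribosomes (IP) were sequenced from the same animals at 21 days of age. There were 3 wild-type animals (Adad2+/+, numbered 121, 140 and 17) and 4 mutants (Adad2M/M, numbered 12, 69, 93 and 94), which makes 14 libraries, each from 1 animal. All animals were C57BL/6 and, wild types included, were heterozygous for Rpl22-HA (RiboTag) and Stra8-iCre. RiboTag is an HA-tagged protein of the large ribosomal subunit that appears only in cells where Cre has acted. Cre was under the Stra8 promoter, which is active in differentiating germ cells, so neither red cells nor endothelial cells are labelled by design and their RNA in IP is here called carry-over.

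Adult hemoglobin joins alpha chains, made from Hba-a1 and Hba-a2, with beta chains, made from Hbb-bs and Hbb-bt, around heme. Circulating red cells keep globin mRNA for a while after the nucleus is lost, so globin transcripts in a tissue that was not flushed track the blood it holds. Endothelial cells line the vessels, which in the testis run between the seminiferous tubules and do not enter them. Cdh5 (VE-cadherin), Pecam1 (CD31) and Esam are adhesion proteins of endothelial junctions, Kdr is the main receptor for VEGF, and Tek is the receptor for angiopoietins.

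Library size did not separate the groups, since input libraries held 22987974 to 30330450 expected counts and IP libraries 25037235 to 30871330. The number of annotated genes above 0 differed more. In input it was 25319 to 27791 in wild types, 21334 and 27002 in mutants 93 and 94, and 16024 and 15438 in mutants 12 and 69. In input mutant 94 thus lay within the wild-type range, while in IP, at 19655 to 21880 in wild types and 12744 to 15024 in the 4 mutants, the groups did not overlap. Adad2 itself was at 25, 27.3 and 30.1 CPM (counts relative to library size, scaled by TMM) in wild-type input and at 5.31, 5.04, 10.9 and 11.3 CPM in mutants 12, 69, 93 and 94. Its log2 fold change was -1.76 ± 0.37 (SE), with an adjusted p of 0.347 by the quasi-likelihood test of edgeR. In bulk RNA, fewer cells of a type and less RNA per cell cannot be told apart.

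The 4 globin genes form 2 pairs of near-identical copies, and the letters are shown because they limit what can be said of each copy. In GRCm38, Hba-a1 (ENSMUSG00000069919.7) lies on the plus strand of chromosome 11 from 32283511 to 32284465 and Hba-a2 (ENSMUSG00000069917.7) from 32296489 to 32297298. Hbb-bt (ENSMUSG00000073940.3) and Hbb-bs (ENSMUSG00000052305.6) lie on the minus strand of chromosome 7, from 103812524 to 103813996 and from 103826534 to 103828096. The coding parts of the main transcripts of Hba-a1 and Hba-a2 are 426 bases long without the stop codon and differ at 1 base, C381T, counted from 1 at the A of the start codon. Those of Hbb-bs and Hbb-bt are 441 bases long and also differ at 1 base, C417T. Each change falls on the last base of a codon (127 and 139) and leaves the residue the same, so each pair encodes 1 protein, of 142 residues for alpha and 147 for beta. The stretches of coding sequence around these bases are given 5′ to 3′ from GENCODE M21, with the differing base in capitals.
Hba-a1: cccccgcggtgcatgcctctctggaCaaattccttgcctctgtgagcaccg
Hba-a2: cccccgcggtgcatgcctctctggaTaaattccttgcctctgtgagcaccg
Hbb-bs: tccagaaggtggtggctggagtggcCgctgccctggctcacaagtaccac
Hbb-bt: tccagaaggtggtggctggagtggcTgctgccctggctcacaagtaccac

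Reads were 100 bases long after trimming. Of all 100-base stretches, 56.5% in the main transcript of Hba-a1 and 74.5% in that of Hba-a2 also occur in the partner transcript, as do 62.6% for Hbb-bs and 54.8% for Hbb-bt. RSEM shares such reads out between the copies as fractions. In wild type 121, Hba-a1 had 903.76 and Hba-a2 had 1334.24 expected counts in input, and their sum was 2238. The share given to Hba-a1 lay between 39.7% and 54.5% of its pair in the 7 input libraries, and that of Hbb-bs between 83.0% and 92.2%. In IP the same shares ranged from 0% to 100% and from 26.3% to 100%. Single copies are therefore uncertain in IP, and the pair sums are given beside them.

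Level per transcript length was read from the authors' TPM, summed over the transcripts of a gene. In wild-type input Hbb-bs was highest at 117 ± 46.9 TPM (SD, n = 3), followed by Hba-a2 at 86.8 ± 36.4 and Hba-a1 at 50.2 ± 21.8. These neighbours overlapped within 1 SD. Hbb-bt at 15.8 ± 6.55 TPM and Alas2 at 4.87 ± 1.47 TPM each stood apart from the gene above. The endothelial genes were lower, at 1.47 ± 0.195 TPM for Cdh5, 1.36 ± 0.332 for Pecam1, 1.16 ± 0.133 for Kdr, 0.687 ± 0.208 for Esam and 0.513 ± 0.146 for Tek. Cdh5, Pecam1 and Kdr overlapped within 1 SD, as did Esam and Tek. Both alpha genes together came to 0.876 to 1.3 times the TPM of both beta genes in wild-type input and to 0.598 to 1.02 times in mutant input. Mutants 12 (0.598), 69 and 94 (0.806 each) lay below all wild types and mutant 93 lay among them.

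Globin transcripts were more abundant in the input of most mutants, with overlap between the genotypes for each gene. Hbb-bs was measured at 60.9, 44.2 and 110 CPM in wild types 121, 140 and 17 and at 253, 147, 117 and 84.5 CPM in mutants 12, 69, 93 and 94. The 3 highest mutants lay above every wild type and mutant 94 lay within the wild-type range. The log2 fold change of Hbb-bs was 1.08 ± 0.47 (SE), with an unadjusted p of 0.0527 and an adjusted p of 0.80 by edgeR. Hbb-bt was at 12.5, 5.75 and 15.2 CPM in wild types and at 21.6, 23.7, 11.1 and 16.8 CPM in mutants, and its log2 fold change was 0.73 ± 0.44. Here mutant 93 was the one inside the wild-type range. Summed, the beta genes were at 83.0 ± 38.7 CPM in wild types (SD, n = 3) and 169 ± 76.2 CPM in mutants (n = 4), a log2 fold change of 1.04 ± 0.45 with an adjusted p of 0.787. The exact permutation test of the 7 animals gave p = 0.114 for this sum (two-sided, 35 splits, smallest possible p 0.0286).

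As a sum, the alpha genes had a smaller difference than the beta genes, with a log2 fold change of 0.63 ± 0.39 by edgeR. Hba-a1 was at 35.5, 17.4 and 52.6 CPM in wild types and at 81.1, 72.6, 56.5 and 28.7 CPM in mutants. Hba-a2 was at 52.4, 22.9 and 56.8 CPM in wild types and at 72.8, 60.7, 67.6 and 43.5 CPM in mutants. For both genes 3 mutants lay above all wild types and mutant 94 lay inside their range. Log2 fold changes were 0.78 ± 0.46 for Hba-a1 and 0.49 ± 0.34 for Hba-a2, neither called by edgeR. Their sum was at 79.2 ± 35.3 CPM in wild types and 121 ± 34.7 CPM in mutants, with an exact permutation p of 0.20 for the 7 animals. Wild type 140 had the lowest level of each globin gene.

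The globin difference was largest in the 2 input libraries with few genes. Summed over the 4 genes, globin transcripts were at 161, 90.3 and 235 CPM in wild types 121, 140 and 17 and at 429, 304, 252 and 173 CPM in mutants 12, 69, 93 and 94. Without mutants 12 and 69 the mutant mean was 1.31 times the wild-type mean, against 1.79 times with them. For Hbb-bs alone the ratio moved from 2.10 to 1.40, and its log2 fold change to 0.49 ± 0.43 by edgeR. Whether the small number of genes in these libraries bears on their globin levels was not tested. Globin counts made up 0.00885% to 0.0226% of all counts in wild-type input and 0.0168% to 0.0450% in mutant input.

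Alas2 makes the first, rate-limiting step of heme synthesis in red cell precursors. Its gene (ENSMUSG00000025270.13) lies on the plus strand of chromosome X from 150547375 to 150570638. It was at 9.34, 7.84 and 11.8 CPM in wild-type input and at 5.76, 27.1, 14.9 and 11.3 CPM in mutants 12, 69, 93 and 94. Mutant 69 had the highest level and mutant 12, the animal with the most globin, the lowest of all 7. The log2 fold change was 0.63 ± 0.55, not called by edgeR, and the exact permutation p was 0.543. Alas2 thus did not share the order of the globin sum among mutants. The globin genes themselves differed in order, and Hbb-bt was also highest in mutant 69.

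**Figure D1:**
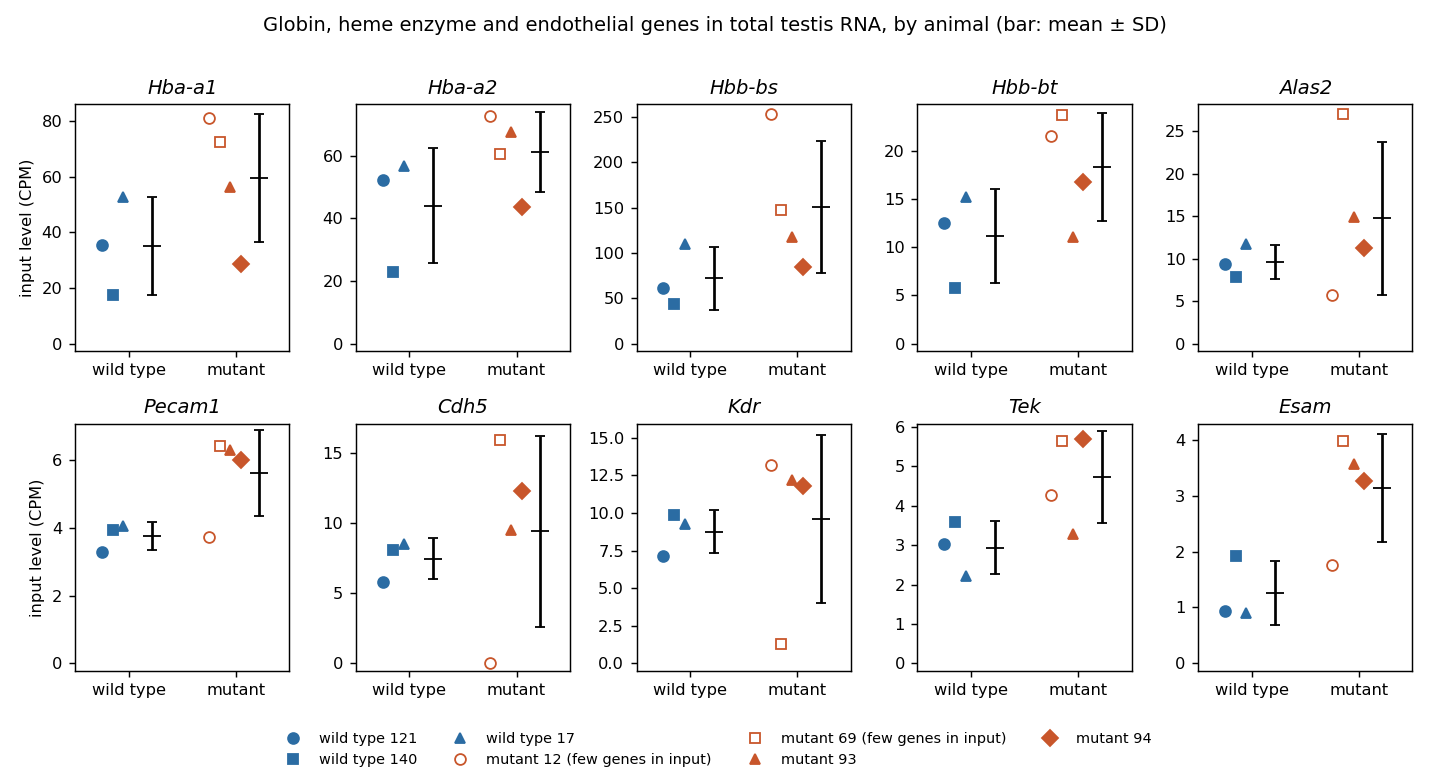
Level of each gene in total testis RNA (CPM, vertical axis, a separate scale per gene) in 3 wild-type animals (blue) and 4 mutants (orange), 1 point per animal, with the group mean and SD as a bar. Open symbols are mutants 12 and 69, whose libraries held 16024 and 15438 annotated genes above 0; globin points of most mutants sit above the wild types, while Cdh5 is at 0 in mutant 12 and Kdr at 1.303 CPM in mutant 69.

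Endothelial genes were moderately higher in the input of mutants 93 and 94 and uneven in mutants 12 and 69. The 5 genes lie on separate chromosomes, Pecam1 (ENSMUSG00000020717.19) on 11 from 106654217 to 106750628, Cdh5 (ENSMUSG00000031871.9) on 8 from 104101625 to 104144511, and Kdr (ENSMUSG00000062960.10) on 5 from 75932827 to 75978458. Tek (ENSMUSG00000006386.15) lies on 4 from 94739289 to 94874976 and Esam (ENSMUSG00000001946.14) on 9 from 37528078 to 37538319. Summed over the 5 genes, the level was 20.2, 27.4 and 24.9 CPM in wild types 121, 140 and 17 and 23.0, 33.2, 34.9 and 39.04 CPM in mutants 12, 69, 93 and 94. The mutants other than 12 lay above all wild types. The ratio of means was 1.35 with all mutants and 1.53 without mutants 12 and 69.

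Among the junction proteins, Pecam1 was at 3.27, 3.92 and 4.05 CPM in wild types and at 3.74, 6.42, 6.29 and 6.00 CPM in mutants 12, 69, 93 and 94. The other 3 mutants were thus close to each other and above the wild types, while mutant 12 lay among the wild types. Esam was at 0.942, 1.93 and 0.905 CPM in wild types and at 1.76, 3.98, 3.56 and 3.27 CPM in mutants, again with mutant 12 alone inside the wild-type range. Log2 fold changes were 0.59 ± 0.77 for Pecam1 and 1.33 ± 1.1 for Esam, and exact permutation p-values were 0.114 and 0.0857. Cdh5 was at 5.80, 8.10 and 8.47 CPM in wild types and at 15.9, 9.49 and 12.3 CPM in mutants 69, 93 and 94. In mutant 12 it was at 0, with 0 of 25110162 counts, which allows up to 3 counts by counting error alone. Its log2 fold change was 0.34 ± 1.45 and fell to -0.06 without mutant 69.

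Among the receptors, Kdr was at 7.14, 9.87 and 9.27 CPM in wild types and at 13.2, 12.2 and 11.8 CPM in mutants 12, 93 and 94. In mutant 69 it was at 1.303 CPM, below all wild types. Its log2 fold change was 0.14 ± 0.74 and turned to -0.07 without mutant 12. Tek was at 3.02, 3.58 and 2.22 CPM in wild types and at 4.28, 5.64, 3.30 and 5.71 CPM in mutants, of which only mutant 93 was inside the wild-type range. Its log2 fold change was 0.70 ± 0.88, with an exact permutation p of 0.0857. The genes that were low or at 0 in mutants 12 and 69 were not the same in both animals.

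Values of this kind were common in these 2 libraries. Of 4503 annotated genes within 2-fold of the wild-type level of Cdh5, 12.6% were at 0 (counts rounding to 0) in mutant 12 and 15.5% in mutant 69, against 1.6% in mutant 93 and 0.266% in mutant 94. At the level of Kdr the shares were 9.84%, 12.4%, 1.24% and 0.221%, and at the level of Hbb-bs 0.695%, 0.834%, 0.0556% and 0%. In mutant 69 the transcript assignment was uneven as well. Its 37 counts for Kdr were all on Kdr-202, a retained-intron transcript, whereas Kdr-201 held 96.7% of the counts over all inputs. Its 113 counts for Esam were all on Esam-205, a transcript that held at most 3.15 counts in the other inputs. A short transcript of Cdh5 (346 bases) took 109 counts in mutant 69 and none in the other 6 inputs, and the authors' TPM of Cdh5 was 16.45 in this animal against 1.25 to 2.03 in the other animals above 0.

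The quasi-likelihood test of edgeR called 0 of the 10 genes for mutant against wild type in input, where 0.00547% of 36572 features were called higher and 0.00273% lower. None of the 10 had an unadjusted p under 0.05. DESeq2 called 0.962% of features higher and none of the 10, with 1 (Hbb-bs) at an unadjusted p under 0.05. Log2 fold changes by edgeR were above 0 for 10 of 10 genes, with a median of 0.66, beside 42.6% of 19954 annotated genes and their median of -0.10. As a difference of mean log2 CPM, which gives zeros full weight, 8 of 10 were above 0 (the exceptions were Cdh5 and Kdr) beside 29.4% of annotated genes. Without mutants 12 and 69 it was 10 of 10 beside 50.4%. For 9 of the 10 genes 3 of the 4 mutants lay above every wild type, which held for 12.1% of annotated genes tested, and for none did all 4, which held for 3.58%.

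The plot of gene lists shows how the lists around these genes were placed in input. The other red cell genes comprised membrane and cytoskeletal proteins, embryonic globins and erythroid factors. Of 30, Ahsp was not measured, 11 were tested by edgeR and none was called. By edgeR 8 were above 0, with a median of 0.43, but by mean log2 CPM 4 were, with a median of -0.04. Hba-x, Hbb-y, Hbb-bh1, Hbb-bh2, Hbq1a, Hbq1b, Rhag, Tal1, Epor and Car1 were at 0 in all 7 inputs. Slc4a1, the anion exchanger of the red cell membrane, was at 0.726, 0.641 and 0 CPM in wild types and at 4.43, 4.26, 2.49 and 0.346 CPM in mutants 12, 69, 93 and 94. The order among mutants was that of the globin sum, but wild type 17, with the most globin of the wild types, was at 0 and mutant 94 lay below wild types 121 and 140. Its log2 fold change was 2.70 ± 1.81, and it was not called by edgeR. Epb41 (26.4 ± 5.22 CPM in mutants) and Bpgm (18.9 ± 5.82), which other cells also express, had log2 fold changes of 0.43 and -0.24.

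Of 15 genes of heme synthesis and iron uptake, all were tested in input, 8 were above 0 and none was called by edgeR. Alad, the second enzyme of the heme pathway, was at 17.3 ± 2.91 CPM in wild types and 25.7 ± 6.45 CPM in mutants, a log2 fold change of 0.59 ± 0.28. Urod, another heme enzyme, was at 10.6 ± 0.189 and 15.3 ± 7.10 CPM, and Slc11a2, an iron transporter, at 50.1 ± 7.87 and 62.3 ± 10.9 CPM. The summed level of the list was 310 to 363 CPM in wild types and 317 to 419 CPM in mutants, so the groups overlapped.

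Of 30 further endothelial genes, 26 were tested in input and none was called by edgeR. By edgeR 18 had log2 fold changes above 0, with a median of 0.28, but by mean log2 CPM 12 did, with a median of -0.21. Their summed level was 80.7 to 105.1 CPM in wild types and 100 to 144 CPM in mutants. Cldn5, Emcn and Egfl7, markers of the endothelium, were all detected in wild types, but Cldn5 was at 0 in mutant 69 and Emcn at 0 in mutants 12 and 69. The genes with the smallest p were Efnb2, an artery gene (1.40 ± 0.960 CPM in wild types, 4.85 ± 2.76 in mutants), Sox17 (1.03 ± 0.593 and 3.20 ± 2.18) and Ephb4, the receptor for Efnb2 (7.70 ± 2.54 and 11.3 ± 2.21). Of the ligands, receptors and partners of the VEGF and angiopoietin systems, 13 of 14 were tested and none was called. By edgeR 11 were above 0, with a median of 0.33, but by mean log2 CPM 6 were, with a median of -0.52. Vegfb was at 1.32 ± 0.384 and 3.96 ± 2.82 CPM, Ptprb, the phosphatase that acts on Tek, at 14.8 ± 0.283 and 18.6 ± 7.65 CPM, and Nrp2, a co-receptor, at 7.50 ± 3.06 and 10.1 ± 3.00 CPM.

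Junction partners of Pecam1, Cdh5 and Esam are expressed in many cells besides the endothelium, and 9 of 10 were above 0 in input. F11r (JAM-A) was at 33.3 ± 4.51 CPM in wild types and 55.1 ± 8.01 CPM in mutants, with every mutant above every wild type and a log2 fold change of 0.74 ± 0.17, but its adjusted p was 0.347 by edgeR. Jam2 was at 18.8 ± 3.31 and 31.7 ± 9.26 CPM, and Ptpn11 at 53.7 ± 3.77 and 66.3 ± 15.1 CPM. Of the mural cell genes, which mark pericytes and smooth muscle, 7 of 11 tested were above 0, among them Tagln (18.8 ± 3.95 and 24.4 ± 2.45 CPM), Rgs5 (11.6 ± 4.11 and 18.3 ± 7.21) and Des (2.63 ± 0.231 and 3.89 ± 1.17). Of 12 platelet genes 5 were tested, of which 4 were above 0 by edgeR and 1 by mean log2 CPM, and Pf4 was highest in mutant 12 at 12.1 CPM against 1.45 to 4.65 CPM in the other 6 inputs. Gp5 and Itgb3 were at 1.54 ± 1.94 and 6.68 ± 4.53 CPM in mutants. Of 12 leukocyte genes 5 were tested, of which 3 were above 0 by edgeR and 2 by mean log2 CPM, with Lck at 8.28 CPM in mutant 12 and at 0 to 1.76 CPM elsewhere, and with Cd3e at most at 2.18 CPM. S100a8 and S100a9, markers of neutrophils, were at 0 in all inputs.

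**Figure D2:**
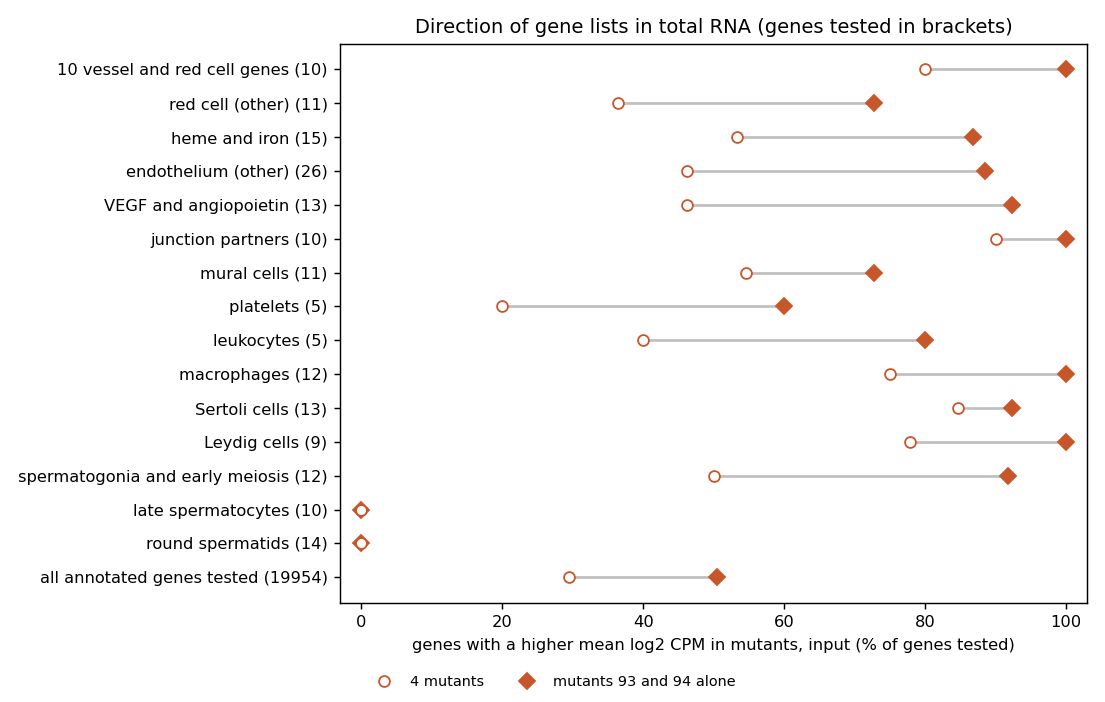
Share of the tested genes of each list whose mean log2 CPM in input was higher in mutants than in wild types (horizontal axis, %), with all 4 mutants (open circles) and with mutants 93 and 94 alone (filled diamonds). The 10 vessel and red cell genes moved from 80% to 100% and all annotated genes from 29.4% to 50.4%, while lists of late spermatocytes and round spermatids stayed at 0%.

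Markers of other testis cells were compared in the same inputs. By edgeR 12 of 12 macrophage genes, 12 of 13 Sertoli cell genes and 8 of 9 Leydig cell genes had log2 fold changes above 0 in input, with medians of 0.50, 0.32 and 0.29, and 9, 11 and 7 of them were above 0 by mean log2 CPM. None was called. Mrc1, a receptor of resident macrophages, was at 56.0 ± 7.70 CPM in wild types and 77.3 ± 12.1 CPM in mutants, and Vim, an intermediate filament of Sertoli and other cells, at 82.6 ± 10.5 and 115 ± 4.67 CPM. Of the genes of spermatogonia and early meiosis 9 of 12 were above 0, with Stra8 at 16.2 ± 0.606 and 20.5 ± 11.4 CPM and Sycp3, of the meiotic chromosome axis, at 265 ± 13.2 and 189 ± 53.3 CPM. All 10 genes of late spermatocytes and all 14 tested genes of round spermatids were below 0, with medians of -0.53 and -1.32. The summed level of round spermatid genes was 334 to 430 CPM in wild types and 179 to 231 CPM in mutants, which did not overlap. The part of these other cell types in the levels of vessel and blood genes was not tested.

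Genes most like the globins across the 7 inputs were searched among 13903 protein-coding genes with a mean of at least 1 CPM. Likeness was the root-mean-square distance between log2 CPM profiles, each centred on its own mean, and its median over all genes was 0.874. Nearest to the sum of the 4 globin genes were 2 of its own parts, Hba-a1 (0.171) and Hbb-bs (0.174), then Frem2 (0.227), Prkd1 (0.241) and Hba-a2 (0.279). Frem2 was at 2.04, 1.36 and 2.18 CPM in wild types and at 4.92, 3.35, 2.86 and 2.41 CPM in mutants 12, 69, 93 and 94. Hbb-bt ranked 24 at 0.361 and Alas2 ranked 6491 at 0.851, near the median gene. Nearest to Cdh5 were Mmd2, Rfk, Lama5, Gnb4 and Ovca2, at distances of 0.183 to 0.256. All 5 were at 0 CPM in mutant 12, as Cdh5 was, and that shared 0 outweighs the other 6 inputs in the measure. The other endothelial genes were at 2.19 (Pecam1), 2.28 (Esam), 2.39 (Tek) and 2.91 (Kdr) from Cdh5, beside a median of 2.34.

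Pull-down depleted the globins in both genotypes. Summed over the 4 genes, globin transcripts fell to 10.01, 6.19 and 36.9 CPM in the IP of wild types 121, 140 and 17 and to 27.4, 20.7, 19.7 and 7.39 CPM in that of mutants 12, 69, 93 and 94. As carry-over, which is IP CPM as a percentage of input CPM of the same animal, this was 6.21%, 6.86% and 15.7% in wild types and 6.39%, 6.80%, 7.79% and 4.26% in mutants. Wild type 17 stood above the other 6 animals, which lay close together. Stra8, the source of the Cre promoter, went the other way, from 16.2 ± 0.606 to 80.1 CPM in wild types and from 20.5 ± 11.4 to 139 CPM in mutants, and its log2 fold changes were 2.61 and 3.01 with adjusted p-values of 0.00634 and 0.00618 by edgeR. Sycp3 rose by 1.73 and 1.65 on the log2 scale.

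**Figure D3:**
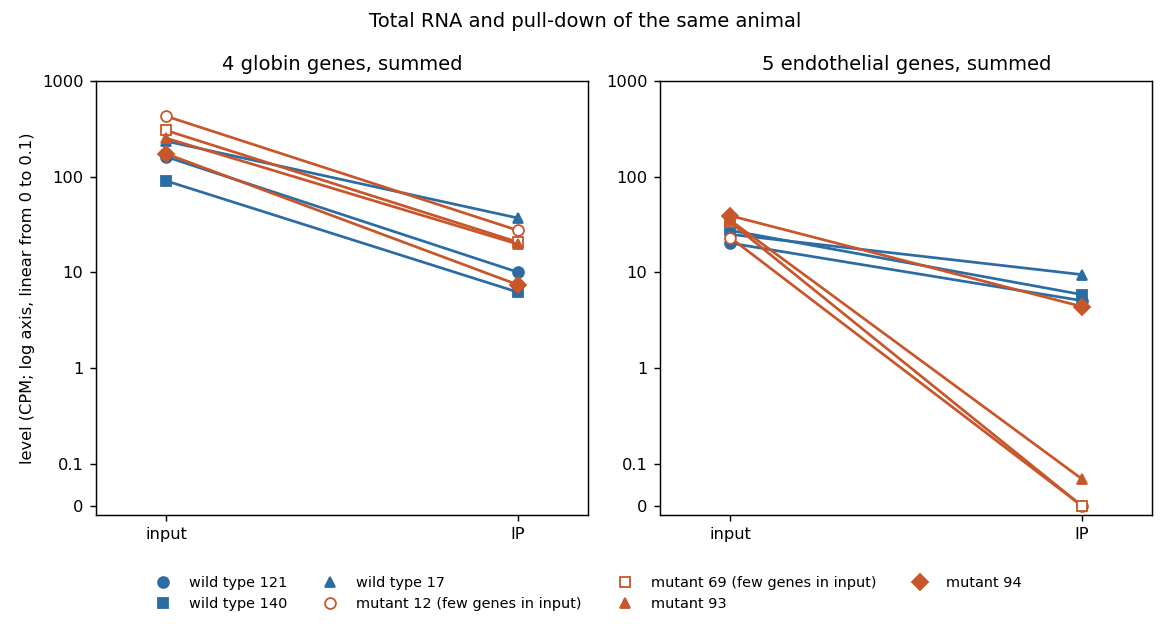
Summed level of the 4 globin genes (left) and the 5 endothelial genes (right) in input and IP, with a line for each animal (blue wild type, orange mutant; CPM on a log axis that is linear between 0 and 0.1). Globin lines of both genotypes fall to 6.19 to 36.9 CPM, whereas the endothelial sum ends at 5.05 to 9.45 CPM in wild types, at 4.37 CPM in mutant 94, at 0.0633 CPM in mutant 93 and at 0 in mutants 12 and 69.

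In wild types, edgeR with the animal as a block called 4 of the 10 genes lower in IP than in input, beside 6.37% of 34864 features called lower and 13.0% called higher. They were Hba-a1 (-4.14 ± 0.54 on the log2 scale, adjusted p = 0.0161), Hbb-bs (-3.66 ± 0.74, 0.0438), Alas2 (-3.18 ± 0.61, 0.0377) and Hba-a2 (-2.69 ± 0.34, 0.0149). Without wild type 121 or without wild type 140, 0 of all features were called, these genes included. Without wild type 17, 2 of the 10 were called, beside 2.94% of features called lower. The alpha sum fell by 3.15 ± 0.35 (adjusted p = 0.0117) and the beta sum by 3.27 ± 0.36 (adjusted p = 0.0118). The other 6 genes had log2 fold changes from -3.49 (Hbb-bt) to -0.40 (Esam). DESeq2, which called 31.2% of features lower, called 8 of the 10 lower, all but Esam and Tek.

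In mutants 1 gene, Hbb-bs, was called lower in IP by edgeR (-4.20 ± 0.32, adjusted p = 0.00177), beside 3.56% of 22918 features called lower and 6.35% called higher. Without mutants 12 and 69 its log2 fold change was -3.84 with an adjusted p of 0.0555. None of the 10 was then called, beside 6 of 31795 features called lower and 6 called higher. The alpha sum fell by 3.72 ± 0.31 (adjusted p = 0.00201) and the beta sum by 4.38 ± 0.32 (adjusted p = 0.00153), although Hba-a1 and Hba-a2 taken singly were not called. Their reads changed sides between libraries. In IP the pair had 0 and 333 counts in mutant 69, 12.4 and 288 in mutant 93 and 83.0 and 0 in mutant 94, for Hba-a1 and Hba-a2 in this order. DESeq2, which called 29.9% of features lower, called all 10 lower. Without the animal block edgeR called 5 of the 10, beside 7.80% of features called lower, and of these 5 Hbb-bt, Kdr, Tek and Esam were at 0 in all mutant IP libraries.

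Hbb-bs was carried over at 1.61%, 8.33% and 15.6% in wild types 121, 140 and 17 and at 2.99%, 6.25%, 8.55% and 5.49% in mutants 12, 69, 93 and 94. Hba-a2 was carried over at 9.66%, 9.07% and 21.7% in wild types and at 14.1%, 18.9%, 13.7% and 0% in mutants. The genotypes overlapped for both genes, with exact permutation p-values of 0.886 and 0.857. Hbb-bt was at 22.0%, 0% and 12.5% in wild types and was given 0 counts in the IP of all 4 mutants, where RSEM put all reads of the pair on Hbb-bs, so no limit is set for this copy. The beta pair was carried over at 5.09%, 7.37% and 15.2% in wild types and at 2.76%, 5.39%, 7.81% and 4.58% in mutants, and the alpha pair at 7.14%, 6.23% and 16.3% and at 12.9%, 8.61%, 7.78% and 3.81%. Alas2 had the widest carry-over in mutants, at 79.9%, 10.6%, 29.0% and 7.32%, against 16.9%, 4.97% and 8.07% in wild types. In IP it was at 1.58, 0.390 and 0.952 CPM in wild types and at 4.61, 2.86, 4.31 and 0.8288 CPM in mutants, of which 3 lay above all wild types. The share of all genes with 3 mutants above all wild types in IP was not computed. In mutant 69 all 83 IP counts of Alas2 were on a retained-intron transcript of 485 bases that was at 0 in the other IP libraries. It held 18.9% of Alas2 counts over all IP libraries and 4.98% over all inputs. Transcript shares of globin reads in IP were unlike those of input. A retained-intron transcript of Hba-a1 held 54.6% of Hba-a1 counts over all IP libraries and 5.29% over all inputs. Mutant 12 gave 258.37 of its 299.99 IP counts, 4 of the 7 IP libraries were at 0, and without mutant 12 the IP share was 14.3%. A retained-intron transcript of Hbb-bs held 9.36% of Hbb-bs counts over all IP libraries and 0% over all inputs. In the IP of wild type 140 the main transcript of Hbb-bs was at 0 counts.

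None of the 5 endothelial genes was called lower in wild-type IP, beside 6.37% of 34864 features, and 3 of them were at 0 in every mutant IP library. These were Kdr, Tek and Esam. Of annotated genes at their wild-type IP levels, 17.0%, 31.6% and 31.4% were also at 0 in all mutant IP libraries. A difference from the globins was not tested, and Kdr, at -2.78 ± 0.87 in wild types, had a log2 fold change like that of Hba-a2. The endothelial sum was carried over at 25.02%, 21.3% and 37.9% in wild types 121, 140 and 17 and at 0%, 0%, 0.182% and 11.2% in mutants 12, 69, 93 and 94. Each mutant lay below each wild type. Esam had 13, 18 and 25 counts in wild-type IP, a carry-over of 57.4%, 40.5% and 97.4%, and Tek had 16, 5 and 37, a carry-over of 22.0%, 6.04% and 58.7%. Kdr was at 1.14, 0.303 and 2.57 CPM in wild-type IP, a carry-over of 15.98%, 3.07% and 27.8%. All 3 genes were at 0 in every mutant IP library. For each, the exact permutation test of the 7 animals gave p = 0.0286, the smallest it can give and not adjusted over genes.

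Pecam1 and Cdh5 were seen in the IP of mutant 94 above 2 CPM. Pecam1 was carried over at 49.5%, 24.2% and 23.6% in wild types and at 0%, 0%, 1.01% and 39.2% in mutants. Cdh5 was carried over at 18.6%, 44.4% and 44.1% in wild types and at 0%, 0% and 16.4% in mutants 69, 93 and 94, and mutant 12 has no value because its input was at 0. Against the floor of 3 counts over the 4 mutant IP libraries, mutant IP was at least 368-fold lower than mutant input for Kdr, 188-fold for Tek and 123-fold for Esam. Against wild-type IP, and by counting error alone, the mutant level was at least 55.6-fold lower for Kdr, 30.0-fold for Tek and 29.0-fold for Esam. Without wild type 17, which held most counts of Kdr and Tek, these bounds were 28.5-fold, 17.4-fold and 25.7-fold. These bounds cover counting error only, since reads without molecular identifiers are not independent molecules. They do not cover the zeros that many other genes of the same level had in mutant IP libraries, so the true differences can be smaller.

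**Figure D4:**
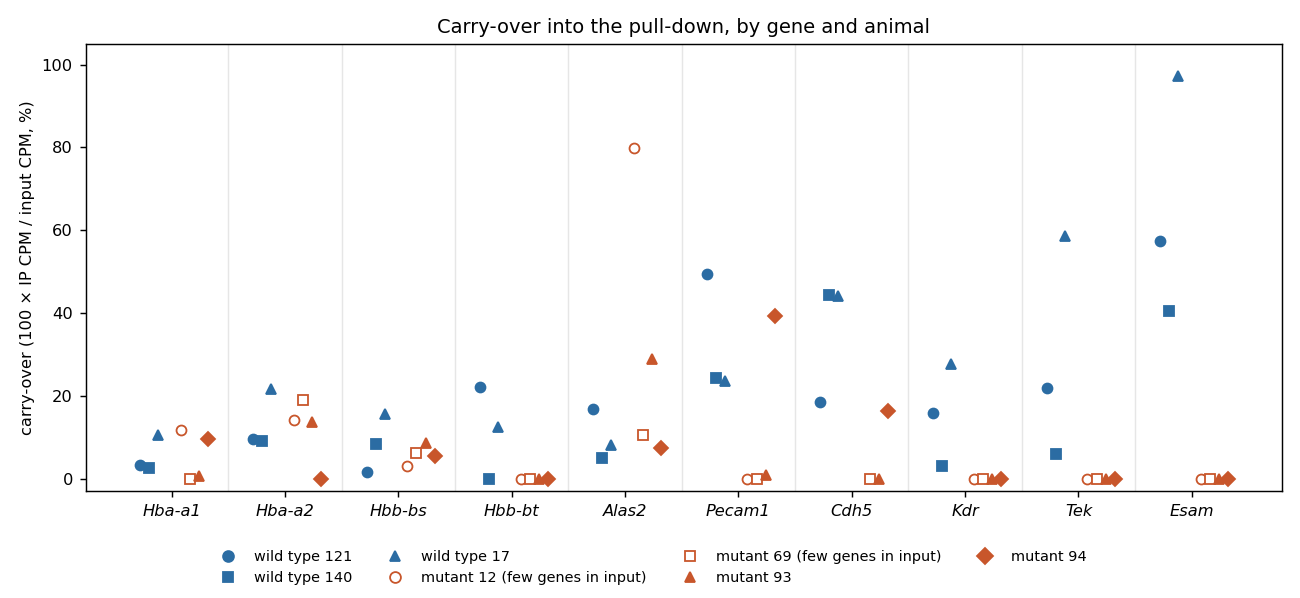
Carry-over of each gene (100 × IP CPM / input CPM, %, vertical axis) in each wild-type animal (blue) and mutant (orange; open symbols are mutants 12 and 69); Cdh5 has no value in mutant 12, whose input was at 0. Hba-a1, Hba-a2 and Hbb-bs values of both genotypes mix at or below 21.7%, while Kdr, Tek and Esam are at 0 in 4 of 4 mutants and between 3.07% and 97.4% in wild types.

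Many other genes of the same level were also at 0 in mutant IP. Of 3698 annotated genes within 2-fold of the wild-type IP level of Kdr (1.34 CPM), 17.0% were at 0 in all 4 mutant IP libraries, as were 31.6% of 4031 genes at the level of Tek, 31.4% of 4030 at that of Esam and 14% of 3584 at that of Hbb-bt. In single libraries the shares at the level of Kdr were 63.3%, 68.0%, 46.0% and 48.7% in mutants 12, 69, 93 and 94, and 12.4% of these genes were at 0 in any wild-type IP. At the level of Cdh5 (2.80 CPM), which was at 0 in mutants 12, 69 and 93, the shares were 43.1%, 47.1%, 25.9% and 27.9%. At the level of Hbb-bs (7.29 CPM), which was above 0 throughout, they were 18.5%, 21.7%, 9.01% and 9.26%. The lower a gene in wild-type IP, the larger was the share at 0 in each mutant library. How much of the endothelial difference goes with this was not tested.

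**Figure D5:**
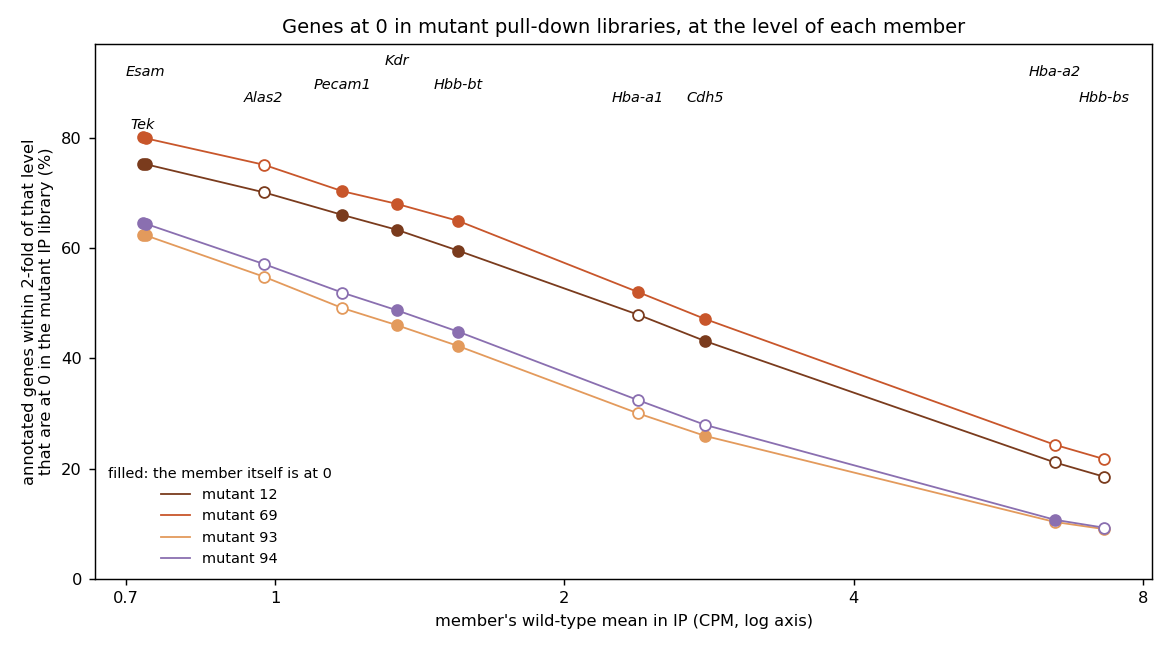
For each of the 10 genes, its mean level in wild-type IP (CPM, log axis) against the share of annotated genes within 2-fold of that level that are at 0 in the IP library of a mutant (%, vertical axis), with a line for each mutant. Filled points mark libraries in which the gene itself is at 0; the shares fall from 62.3% to 80.1% at the level of Tek and Esam to 9.01% to 21.7% at the level of Hbb-bs.

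In IP 7 of the 10 genes were tested for mutant against wild type, since Hbb-bt, Kdr and Tek did not pass the filter on low counts. edgeR called 0 of 7, beside 0.00382% of 26186 features called higher and 0.00382% called lower, with 1 (Esam) at an unadjusted p under 0.05. DESeq2, which called 7.94% of features lower, called Esam lower. Esam was at 0 in all mutants and passed the filter through its wild-type counts alone, whereas Kdr and Tek, also at 0, did not pass, so its call says nothing of the other genes. The alpha sum was at 8.86 ± 7.97 CPM in wild types and 10.9 ± 7.03 CPM in mutants, and the beta sum at 8.84 ± 8.89 and 7.86 ± 2.38 CPM, with log2 fold changes of 0.34 ± 0.90 and -0.14 ± 0.82.

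Whether IP over input differed between genotypes was tested as an interaction over 9 genes, with Cdh5 left out for its 0 in the input of mutant 12. edgeR called 0 of 9, beside 0% of 16014 features in either direction. An unadjusted p under 0.05 toward lower IP in mutants was given to 4 (Esam, Kdr, Tek and Hbb-bt). Of all features, 1080 had such a p toward lower IP and 76 toward higher IP. DESeq2, which called 5.90% of features lower, called those 4. They were the genes at 0 in every mutant IP library, so their calls rest on wild-type IP counts alone. For Hbb-bt the 0 came from RSEM placing all reads of the pair on Hbb-bs. The interaction was -0.24 ± 0.47 for the alpha sum and -0.80 ± 0.49 for the beta sum, with adjusted p-values of 0.967 and 0.842 by edgeR. For Alas2 it was 1.19 ± 1.17.

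Carry-over differed among the other somatic lists. In wild types the summed carry-over was 8.61% to 17.2% for macrophage genes, 12.5% to 20.6% for Leydig cell genes, 21.5% to 32.6% for Sertoli cell genes, 23.5% to 37.9% for VEGF and angiopoietin genes and 49.1% to 51.2% for further endothelial genes. In mutants it was 3.52% to 7.80%, 3.95% to 11.4%, 14.7% to 18.2%, 4.18% to 22.4% and 25.7% to 51.2%. For macrophage, Leydig, Sertoli and VEGF and angiopoietin genes the ranges of the genotypes did not overlap. Most features leaned the same way, since the interaction of fraction and genotype was above 0 for 30.2% of 16014 features, with a median of -0.29. The share of all features without overlap in carry-over was not computed, so this is not read as particular to these lists. The summed IP level of mural cell genes was 59.9% to 69.2% of input in wild types and 55.3% to 120% in mutants, but Mcam made up much of it. Mcam was at 17.8, 18.0 and 23.3 CPM in the input of wild types 121, 140 and 17. In their IP it was at 85.1, 81.1 and 89.5 CPM, and in mutant IP at 99.5 to 116 CPM. Of 12 mural genes tested in wild types, 2 were above 0 for IP over input by edgeR, and the median was -2.47. Platelet genes were at 44.1% to 61.2% and at 3.09% to 83.2%, and leukocyte genes at 53.1% to 113% and at 58.4% to 857%. The leukocyte values rest largely on Cd3e, which was higher in IP (3.74 ± 1.53 CPM in wild types) than in input (0.429 ± 0.255). The 857% is from mutant 69, where Cd3e was at 15.9 CPM in IP and the whole list at 2.22 CPM in input. For mural, platelet, leukocyte and further endothelial genes the genotypes overlapped. Mrc1 was at 6.04 ± 3.01 CPM in wild-type IP and at 0 in all 4 mutants, as Kdr, Tek and Esam were at lower wild-type levels. Zeros in all mutant IP libraries were rarer near the level of Mrc1. At the wild-type IP level of Hba-a2 (6.48 CPM) they were found for 1.36% of 3524 annotated genes. Mrc1 was called lower in IP by edgeR in both genotypes (adjusted p = 0.00886 in wild types and 0.00577 in mutants), beside 6.37% and 3.56% of features. Of the 28 further endothelial genes tested in wild types, edgeR called 1 lower in IP, and of 13 VEGF and angiopoietin genes it called 1 lower, Ptprb (-2.65, adjusted p = 0.0472). The list holds genes that other cells express too: Ephb4 was at 12.6 CPM in wild-type IP and Egfl7 at 4.63 to 5.57 CPM, higher than in some inputs. The other red cell genes had a summed carry-over of 97.6% to 111% in wild types. Epb41 was at 32.5 ± 4.94 CPM in wild-type IP, whereas Slc4a1 was at 0 in all 7 IP libraries.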

How the data were processed

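The deposited tables hold expected counts and TPM per transcript, which the authors estimated in RSEM 1.3.3 against GRCm38 with Ensembl transcripts and transcripts assembled from testis. Per the study's methods, stranded libraries depleted of ribosomal RNA were sequenced as paired ends, ribosomal reads were removed with Bowtie2 and reads were trimmed to 100 bases with Trimmomatic. For each gene symbol of GENCODE M21 its transcripts were added up, spike-ins were left out and expected counts were rounded. The members and gene lists were chosen with earlier results of these data known.

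Counts were tested over all features in edgeR 4.0.16 (TMM factors, filterByExpr, robust quasi-likelihood test; Benjamini-Hochberg adjusted p under 0.05), with DESeq2 1.42.0 and limma 3.58.1 on log2(TPM + 0.1) and log2(TPM + 1) as alternatives in R 4.3.3. The standard error was taken from the fold change and its F. For single genes the 7 animals were permuted exactly on log2(CPM + 0.1). The edgeR test was checked on simulated counts with known changes, for genotype in input and for IP against input in wild types. The simulation gave all features the same dispersion and added no animal effects or excess zeros. It therefore does not cover libraries with few genes above 0. Input and IP come from the same animal, which is the block in fits of IP against input; their deviations from group means correlated by 0.007 to 0.044. No 2 libraries held identical counts. Library totals were 22987974 to 30871330, and intervals and floors (3 counts) cover counting error only.

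Named were all 10 genes, up to 3 tested genes per list with the smallest p in input (any called gene included), the 5 protein-coding genes nearest in profile to the globin sum and to Cdh5, Stra8, Sycp3 and Adad2, and transcripts holding at least 5% of a gene's input counts. Other genes named were chosen after their values were seen. EBSeq and the ratio test of the study were not used here. Python 3.11.15 was used with numpy, pandas, scipy and matplotlib. Results for 2 list genes are not reported here.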

Additional observations from a re-analysis of the deposited data

Results flagged for a closer look

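The 4 mutants were examined for a value far from the other 3, gene by gene, in input and in IP; the gap to the nearest value was compared with Dixon's critical value for 4 samples. Of 16 sets with a value above 0, 4 exceeded it. Chance flags about 1 in 20 groups without ties, a rate that does not hold for the IP sets, which hold tied zeros. In input, Pecam1 in mutant 12 (3.74 CPM) lay below 3 mutants that were close together, with a gap of 0.842 of the range, and so did Kdr in mutant 69 (1.303 CPM), with a gap of 0.879. Both animals are those with few genes above 0 in input. In IP, Pecam1 (2.35 CPM) and Cdh5 (2.02 CPM) stood out in mutant 94, with a gap of 0.973 for Pecam1, since both were at 0 or 0.0633 CPM in the other mutants.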

How the results depend on the processing

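For mutant against wild type in input, 0 of the 10 genes were called in every alternative run. In IP, 0 genes were called by edgeR. Esam alone was called by DESeq2 (2078 of 26186 features called lower) and by limma on log2(TPM + 0.1) (1783 of 26186). For IP against input in wild types the 4 calls became 2 without a filter on low counts (1851 of 66022 features called lower). They became 8 with DESeq2 (10862 of 34864). With at least 10 counts in every library they became 5 of only 6 genes tested (5813 of 19518). Each limma setting gave 5 (2898 and 3267 of 34864). They became 6 with annotated genes alone (4090 of 19175) and 3 of 8 tested with near-identical globin genes summed (2219 of 34862). With 1 animal left out they became 0 to 2 (0 to 1088 features). In mutants the 1 call became 2 of only 2 genes tested with at least 10 counts in every library (1977 of 9872 features called lower). It became 2 with annotated genes alone (1206 of 15497) and 2 of 8 tested with near-identical globin genes summed (816 of 22916). It became 10 with DESeq2 (6847 of 22918). Limma on log2(TPM + 0.1) and log2(TPM + 1) gave 6 and 7 (1196 and 1124 of 22918). With 1 animal left out it became 1 to 2 (325 to 581 features). Without mutants 12 and 69 it became 0 (6 of 31795). For the interaction the 0 calls became 4 with DESeq2 (945 of 16014 features called lower). Without the animal as a replicate block, calls were 3 in wild types, 5 in mutants and 4 for the interaction. Features called lower in these fits were 4589 of 34864, 1787 of 22918 and 386 of 16014. No paired analysis was possible because genotypes share no animal, for mutant against wild type within input or within IP.

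Directions turned for several uncalled values. In input, the log2 fold change of Kdr was -0.23 and -0.076 with limma on log2(TPM + 0.1) and log2(TPM + 1), and -0.068 to 0.50 with 1 animal left out, and that of Cdh5 was -0.062 to 0.76. Ratios of means ranged from 0.974 to 1.68 for Cdh5 and 0.963 to 1.42 for Kdr, and Kdr was at 0.956 in TPM. In IP, Hba-a1 was at -0.73 and -0.083 and Hba-a2 at -1.06 and -0.30 with the 2 limma settings, and at -0.60 and -0.49 without mutants 12 and 69, where Pecam1 was at 0.030. With 1 animal left out the IP values ranged from -1.17 to 1.98 for Hba-a1, -0.14 to 1.15 for Hba-a2 and -0.39 to 1.77 for Hbb-bs. The interaction ranged from -2.50 to 0.11 for Hba-a1, -1.31 to 0.24 for Hba-a2 and -1.08 to 0.40 for Hbb-bs, and Hbb-bs was at 0.10 without mutants 12 and 69. Carry-over ratios ranged from 0.628 to 1.87 for Hba-a1, 0.687 to 1.25 for Hba-a2 and 0.487 to 1.17 for Hbb-bs. The causes were not tested. Ratios of means and list directions without mutants 12 and 69, bounds with 1 animal left out and transcript shares without mutant 12 were added after seeing the data. Library totals were alike, and near 1 CPM many genes were at 0 in mutant IP libraries and fewer in wild-type ones. Expected counts of near-identical copies are limited by how reads were shared out.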
